A study of Mus musculus with 4 samples.

Results

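The transcripts of 3 genes of one signaling system were followed through the stroma of mouse long bone: Tnfsf11, which encodes the ligand RANKL, Tnfrsf11b, which encodes the secreted decoy receptor osteoprotegerin (OPG), and Tnfrsf11a, which encodes the receptor RANK. They were chosen by symbol and are 3 of the 53703 features counted, and all 3 had counts in each of the 4 single-cell libraries. RANKL sits on the surface of stromal, osteoblast-lineage and cartilage cells or is shed from them, and its binding to RANK drives monocytic precursors to become bone-resorbing osteoclasts. OPG is released by many mesenchymal cells, binds RANKL and keeps it from RANK, so the balance of RANKL and OPG is known as a control point of bone resorption. RANK is best known from osteoclast precursors, and endothelial cells (ECs) can carry it too.

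The libraries hold cells of metaphyseal bone (femur and tibia) from mice 12 weeks old, digested with collagenase and depleted of lineage-positive, CD45+ and CD117+ cells, so that most hematopoietic cells were removed before capture. The 2 mutant libraries (genotype label Lats2iECKO, written Lats2iΔEC here) came from Cdh5(PAC)-CreERT2 Lats2 lox/lox mice, in which tamoxifen deletes the Hippo kinase gene Lats2 in ECs, and the 2 control libraries from littermates without Cre. The labels call the controls untreated, while the study's methods describe littermates that shared the tamoxifen schedule and the mT/nG reporter background. The comparison asks how the ligand, its decoy and its receptor are distributed over the cells of the bone when Lats2 is lost from endothelium. The Cre driver is active in ECs, so the stromal groups were not the target of the deletion.

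Counts are unique molecular identifiers (UMIs) at the 3′ end of transcripts, not scaled by length, and a level is given as UMIs of the gene per 1000000 UMIs of the same cells (CPM). The libraries held 69636600 to 85899079 UMIs, and 27707 barcodes with at least 1000 UMIs and 800 genes were kept, with medians of 7188 to 7848 UMIs. Of these, 22902 passed 1 of 11 gates set on marker genes. Replicates of a genotype differed by more than sampling noise, with a chi-square per degree of freedom of 6.32 between mutants and 4.84 between controls, and 2 libraries shared at most 22 barcodes. In the endothelial gate, Lats2 stood at 92.6 and 96.8 CPM in mutants and 128 and 120 CPM in controls (log2 fold change −0.30, SE 0.08, adjusted p = 0.0150), and the CreERT2 transcript at 54.8 and 50.0 CPM against 0.644 and 0.828 CPM. The erythroid gate (2092 barcodes) should lack the ligand and the decoy and served as the background level, since free RNA and mixed barcodes reach every group. Whether a level changed through fewer cells of a subtype or less RNA per cell cannot be told apart in sums over a gate.

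In GRCm39, with the annotation GENCODE M39, Tnfsf11 (ENSMUSG00000022015.9) is at chr14:78514885-78545490 on the minus strand, Tnfrsf11b (ENSMUSG00000063727.4) at chr15:54114015-54142075 on the minus strand, and Tnfrsf11a (ENSMUSG00000026321.9) at chr1:105708358-105777170 on the plus strand. Tnfrsf11a overlaps the gene model Gm70609 on the same strand, so their reads cannot be fully told apart, whereas no other gene overlaps the other 2. The 250 bases before the start of Tnfsf11 and Tnfrsf11a are shown because the ligand transcript differed between genotypes in 2 stromal groups and the receptor transcript in ECs. Both were taken from RefSeq, build GRCm38.p6, and are written 5′ to 3′ on the gene's strand. That of Tnfsf11 is chr14:78308044-78308293 (minus strand), with capitals for matches to the TATA box and the CCAAT box, and that of Tnfrsf11a is chr1:105780473-105780722 (plus strand), with capitals for the motif of the TEAD factors, the DNA-binding partners of YAP1 and TAZ below LATS2.
Tnfsf11: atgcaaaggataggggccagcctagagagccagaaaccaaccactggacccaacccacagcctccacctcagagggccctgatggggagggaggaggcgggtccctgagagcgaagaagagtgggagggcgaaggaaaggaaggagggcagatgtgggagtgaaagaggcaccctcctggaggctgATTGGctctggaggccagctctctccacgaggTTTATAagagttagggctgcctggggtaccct
Tnfrsf11a: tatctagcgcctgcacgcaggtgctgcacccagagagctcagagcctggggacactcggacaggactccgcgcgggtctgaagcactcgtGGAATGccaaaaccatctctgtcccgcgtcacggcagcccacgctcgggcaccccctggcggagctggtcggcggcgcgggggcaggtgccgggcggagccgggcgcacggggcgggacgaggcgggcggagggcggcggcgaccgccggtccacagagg
Motifs were searched on both strands, and none of the matches overlapped. The Tnfsf11 window holds TATAAA on the other strand 32 to 27 bases before the start and CCAAT on the other strand 64 to 60 bases before it. These letters are in 12.4% and 33.8% of the 32851 mouse promoters of the same length. The Tnfrsf11a window holds CATTCC (TEAD) on the other strand 160 to 155 bases before the start, as do 12.6% of promoters. Neither window holds TGANTCA (AP-1, in 6.75% of promoters) or TGTGGT (RUNX, in 14.0%).

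The ligand transcript was carried by 3 kinds of control cells at nearly equal levels. In controls, Tnfsf11 stood at 61.0 and 53.3 CPM in hypertrophic chondrocytes, the late cartilage cells that express Col10a1. It stood at 55.9 and 55.4 CPM in metaphyseal stroma, the Postn and Wif1 expressing stroma below the growth plate, and at 56.1 and 50.9 CPM in reticular stroma, the Adipoq and Lepr expressing cells of the marrow. The libraries of these 3 groups overlapped, so no order among them is given. Osteocyte-like cells followed at 32.4 and 27.5 CPM, apart from the first 3. Mural cells (3.15 and 9.53 CPM), chondrocytes (4.61 and 3.84) and fibroblasts (3.66 and 1.57) came next. The mural libraries overlapped both others, and the fibroblasts lay below the chondrocytes. Endothelial cells, osteoblasts and leukocytes were at 0.413 to 1.74 CPM, around the erythroid background (0.663 and 1.38 CPM). Reticular and metaphyseal stroma together held 65.6% and 65.0% of the Tnfsf11 UMIs in the kept barcodes of the control libraries.

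**Figure D1:**
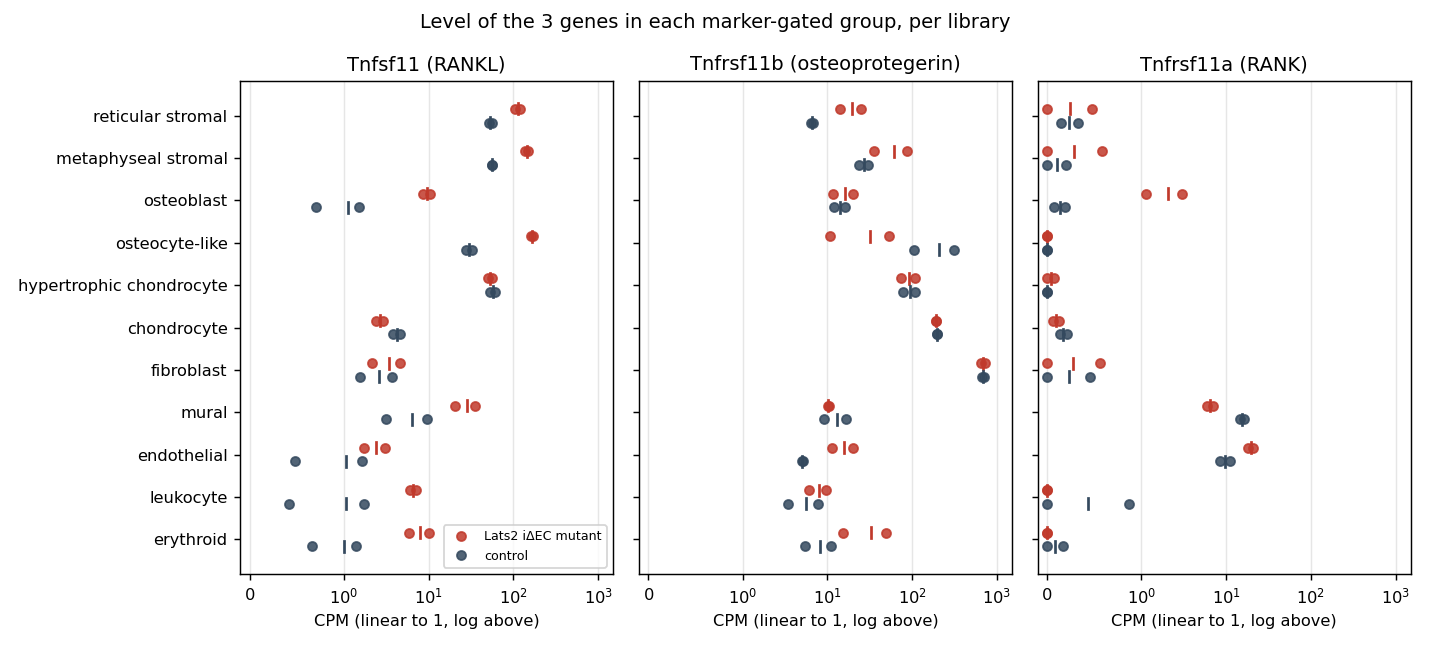
Level of Tnfsf11, Tnfrsf11b and Tnfrsf11a in CPM (x axis, linear to 1 and logarithmic above) in 11 marker-gated groups (y axis). Each point is 1 library, 2 of Lats2iΔEC mutants in red and 2 of controls in dark blue, and vertical ticks are means. Tnfsf11 is highest in reticular, metaphyseal, osteocyte-like and hypertrophic cells, Tnfrsf11b in fibroblasts, followed by chondrocytes and, in controls, osteocyte-like cells, and Tnfrsf11a in endothelial and mural cells.

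In mutants the ligand transcript rose in both marrow stromal groups, by 2.16-fold in reticular and 2.67-fold in metaphyseal stroma. In reticular stroma Tnfsf11 was at 105 and 121 CPM in mutants and 56.1 and 50.9 CPM in controls, from 329, 440, 586 and 521 UMIs. The mutant libraries lay above both controls, and the log2 fold change was 1.11 with an SE of 0.08 (edgeR adjusted p = 3.51e-09). In metaphyseal stroma it was at 137 and 149 CPM in mutants and 55.9 and 55.4 CPM in controls, from 194, 256, 262 and 273 UMIs, a log2 fold change of 1.42 with an SE of 0.10 (adjusted p = 2.66e-06). Of all genes tested, 21.4% were called in reticular and 16.1% in metaphyseal stroma at the same threshold of an adjusted p of 0.05. The erythroid level also rose, to 5.86 and 10.1 CPM in mutants (log2 fold change 3.38, SE 0.48), against 105 to 149 CPM in the mutant stromal groups.

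The rise in stroma was spread over many cells. A Tnfsf11 UMI was seen in 32.8% and 31.5% of mutant reticular cells against 21.2% and 20.7% of controls, at median depths of 5600 to 6089 UMIs. After each cell was thinned to 2000 UMIs the shares were 14.8% and 16.9% against 8.73% and 9.53%. In metaphyseal stroma they were 40.9% and 41.4% against 25.9% and 23.7%, and 17.6% and 21.4% against 9.68% and 7.40% after thinning. Erythroid barcodes had a UMI in 2.72% and 4.30% of mutant and 0.611% and 0.497% of control barcodes, at median depths of 5645 to 7594 UMIs. The 5 reticular cells with most UMIs held 12.5% and 10.9% of the Tnfsf11 UMIs in mutants and 7.51% and 6.53% in controls.

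Both parts of the reticular gate moved. Cells without a UMI of Cbln1, a secreted synaptic organizer among the 10 leading genes of the reticular gate, were at 118 and 131 CPM in mutants and 56.0 and 50.1 CPM in controls (log2 fold change 1.27, SE 0.09, adjusted p = 1.13e-07, with 16.6% of genes called). Cells with a Cbln1 UMI were at 76.4 and 99.2 CPM against 56.4 and 52.6 CPM (0.74, SE 0.14, adjusted p = 0.00415, with 7.95% of genes called). Whether the rise differed between the 2 parts was not tested. The reticular marker list summed to 32817 and 34153 CPM in mutants and 35780 and 35537 CPM in controls. Lists of other cells were higher there in mutants, such as the chondrocyte list (697 and 519 CPM against 324 and 376 CPM), the hypertrophic list (77.2 and 91.9 against 31.8 and 37.6) and the erythroid list (1032 and 990 against 467 and 540). The metaphyseal list was lower in its own gate in mutants (3447 and 3673 CPM against 6604 and 6194 CPM), and the fibroblast list was higher there (680 and 788 CPM against 84.5 and 90.7 CPM). The part of these marker shifts in the ligand differences was not tested.

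The stromal cells were fewer in the mutant libraries. Reticular cells numbered 494 and 609 in mutants and 1699 and 1636 in controls, and metaphyseal cells 193 and 222 against 553 and 574. Both groups together held 30.9% and 35.6% of the Tnfsf11 UMIs in the kept barcodes of the mutant libraries. Barcodes without a gate held 30.7% and 24.0% of them in mutants and 12.99% and 13.1% in controls. Hypertrophic chondrocytes (625 and 644 barcodes in mutants, 155 and 145 in controls) held 22.7% and 17.1% in mutants against 12.3% and 10.6% in controls. Shares of barcodes also follow from digestion and depletion.

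Hypertrophic chondrocytes showed no called difference in the ligand. Tnfsf11 was at 56.6 and 50.4 CPM in mutants and 61.0 and 53.3 CPM in controls, and the groups overlapped (log2 fold change −0.09, SE 0.11, adjusted p = 0.544, where 38.7% of genes were called). A gate made with the even-numbered markers of each list gave a called rise of 0.56 instead (adjusted p = 0.00851). A UMI was seen in 22.1% and 21.7% of mutant cells and in 31 of 155 and 32 of 145 control cells. Control cells were deeper (16739 and 17117 UMIs in the median against 9104 and 8443), so these shares are not at equal depth. After each cell was thinned as in stroma, the shares averaged 10.2% in mutants and 6.76% in controls. The difference between these thinned shares was not tested. The other 8 non-hematopoietic groups include osteoblasts and ECs, with the ligand near or below background. They also include the osteocyte-like and mural gates, whose barcodes differed between genotypes. The effect was lower in hypertrophic chondrocytes than the mean effect of these 8 groups, by 1.47 on the log2 scale with an SE of 0.22. The interaction test gave an adjusted p of 8.05e-06, where 17.8% of genes were called. Among cells with a UMI of Ptgs2, which encodes the prostaglandin synthase COX-2, the mutants were lower, at 64.6 and 61.1 CPM against 88.7 and 203 CPM (−1.13, SE 0.27, adjusted p = 0.00859, with 22.4% of genes called). These were 360 and 370 mutant but 21 and 19 control cells, and 5 cells held 85.7% and 92.6% of the control UMIs. Their median mitochondrial share stood at 0.308% and 0.374% in mutants against 4.16% and 4.73% in controls (0.545% and 0.649% against 4.22% and 4.31% in the whole gate), and its part in the difference was not tested. Cells without Ptgs2 were at 47.0 and 37.9 CPM against 56.1 and 29.5 CPM (−0.02, SE 0.24, adjusted p = 0.967, with 23.0% called).

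Other chondrocytes had little of the ligand, below the erythroid level in mutants (5.86 and 10.1 CPM) and above it in controls (0.663 and 1.38 CPM). Their Tnfsf11 was at 2.41 and 2.92 CPM in mutants and 4.61 and 3.84 CPM in controls, so that the mutant libraries lay below the controls without passing the test (−0.56, SE 0.23, adjusted p = 0.0736, with 36.3% of genes called), and the odd-numbered markers gave a called −0.63. The part of free RNA in these chondrocyte values was not tested. Against the mean of the other groups the effect in chondrocytes was 2.02 lower on the log2 scale (SE 0.32, adjusted p = 8.22e-05, with 9.53% called). In reticular stroma the effect did not pass this test against the other groups (−0.20, SE 0.18, adjusted p = 0.739, with 3.66% called), nor in metaphyseal stroma (0.13, SE 0.22, adjusted p = 1, with 2.47% called).

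**Figure D2:**
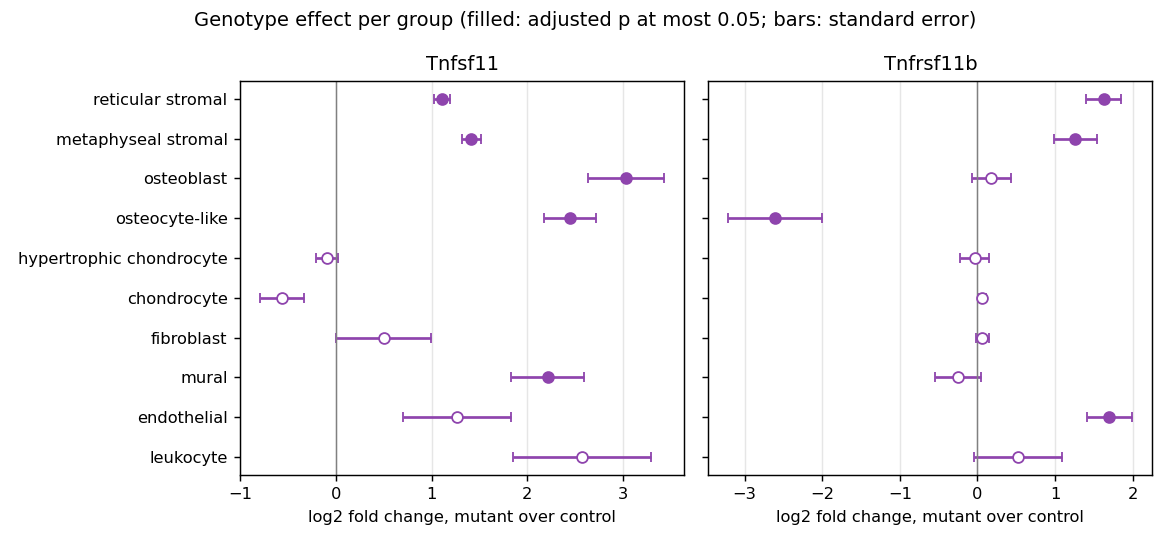
Log2 fold change of Tnfsf11 (left) and Tnfrsf11b (right) in mutants over controls (x axis) in each gate (y axis), from sums per library. Points are edgeR estimates, bars are standard errors, and filled points have an adjusted p of at most 0.05. Tnfsf11 lies at 1.11 in reticular and 1.42 in metaphyseal stroma and near 0 in hypertrophic chondrocytes, and Tnfrsf11b lies near 0 in chondrocytes and fibroblasts.

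The osteocyte-like gate showed the highest ligand level in mutants, but the barcodes in it differed between genotypes. Osteocytes are the bone cells buried in matrix and are known as a main source of RANKL in adult bone. Tnfsf11 was at 159 and 169 CPM in mutants and 32.4 and 27.5 CPM in controls, from 90, 132, 13 and 11 UMIs in 93, 101, 46 and 43 cells (log2 fold change 2.45, SE 0.27, adjusted p = 0.000311, with 19.5% of genes called). With the even-numbered markers the gate gave 0.29 (adjusted p = 0.871). The effect was 1.42 above the mean of the other groups (SE 0.42, adjusted p = 0.0364, with 6.73% called). Phex, an osteocyte and osteoblast enzyme of phosphate control, stood at 360 and 434 CPM in mutants and 2927 and 2340 CPM in controls. Ihh, the hedgehog ligand of prehypertrophic cartilage, stood at 315 and 387 CPM in mutants and at 0 and 19.98 CPM in controls. The median mitochondrial share of the gate stood at 1.92% and 1.80% in mutants against 4.38% and 3.95% in controls. Sost, an osteocyte gene, was at 787 and 553 CPM in mutants and 77.3 and 40.0 CPM in controls, and Col10a1 at 4678 and 3334 CPM against 130 and 5369 CPM.

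The gate was therefore split after these values were seen. Barcodes with a Phex and no Ihh UMI had Tnfsf11 at 14.4 and 41.8 CPM in mutants and 31.2 and 16 CPM in controls, from 2, 11, 11 and 5 UMIs in 18, 29, 40 and 34 cells. Their libraries overlapped (0.39, SE 0.61, adjusted p = 0.871 from a fit without a filter on low counts, where 1.32% of genes were called with the filter). The remaining barcodes were at 207 and 234 CPM in mutants, from 88 and 121 UMIs in 75 and 72 cells. In controls they were only 6 and 9 cells with 2 and 6 UMIs, which is too few for a test. Barcodes with a Phex and no Ihh UMI made up 19.4% and 28.7% of the gate in mutants and 87.0% and 79.1% in controls.

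Mural cells, the smooth muscle cells and pericytes around vessels, also showed a rise in the gate as a whole. Tnfsf11 was at 20.7 and 35.6 CPM in mutants and 3.15 and 9.53 CPM in controls (2.21, SE 0.38, adjusted p = 0.000617, with 30.0% of genes called), which a stricter gate did not call (1.26). Its excess over the other groups did not pass the test (1.06, SE 0.42, adjusted p = 0.108, with 12.8% called). Barcodes with a UMI of Myh11, the smooth muscle myosin, were at 3.83 and 0.958 CPM in mutants and 2.67 and 6.80 CPM in controls, and the genotypes overlapped (−0.93, SE 0.72, adjusted p = 0.682, with 14.2% called). Barcodes without it made up 49.5% and 50.1% of the mutant but 2.24% and 4.88% of the control gate and were at 35.4 and 65.2 CPM in mutants and 32.1 and 73.0 CPM in controls, where they were 7 and 16 cells with 1 and 6 UMIs. One mutant barcode alone held 61 UMIs, and the 5 highest held 70.3% and 60.4%. Mmp13, a collagenase, stood at 844 and 760 CPM in the Myh11-negative barcodes of mutants and at 994 and 462 CPM in those of controls.

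In osteoblasts, ECs and leukocytes the ligand stood near or below the background level, and in fibroblasts the controls lay above it and the mutants below. In osteoblasts Tnfsf11 was at 8.64 and 10.3 CPM in mutants and 0.704 and 1.51 CPM in controls (3.04, SE 0.40, adjusted p = 0.00128, where 4.90% of genes were called), and the effect was 1.92 above that of the other groups (SE 0.49, adjusted p = 0.0182, with 5.38% called). Both genotypes were close to their erythroid level, where the log2 fold change was 3.38 (SE 0.48, adjusted p = 0.00396, with 30.6% called), and the part of free RNA in the osteoblast values was not tested. ECs were at 1.74 and 3.02 CPM against 0.483 and 1.66 CPM (1.27, SE 0.56, adjusted p = 0.115), and fibroblasts at 2.16 and 4.65 CPM against 3.66 and 1.57 CPM (0.50, SE 0.50, adjusted p = 0.652). Leukocytes had 5 and 8 UMIs in mutants and 1 and 4 in controls (2.57, SE 0.72, adjusted p = 0.341), an unadjusted p of 0.0112, in a gate where 0.0738% of genes were called.

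The decoy receptor was highest in fibroblasts, and no difference between genotypes was called in fibroblasts or chondrocytes. Fibroblasts stood apart, with Tnfrsf11b at 730 and 645 CPM in mutants and 668 and 707 CPM in controls (log2 fold change 0.07, SE 0.08, adjusted p = 0.733, where 2.90% of genes were called). Angptl7, Slurp1 and Cilp are among the leading genes of this gate, and most of its barcodes had a UMI of Prg4, which encodes the lubricin of joint and tendon surfaces. Prg4-positive fibroblasts were at 773 and 729 CPM in mutants and 716 and 766 CPM in controls, while Prg4-negative ones were at 258 and 93.9 CPM against 153 and 90.8 CPM. Chondrocytes were at 189 and 192 CPM in mutants and 194 and 195 CPM in controls (0.06, SE 0.05, adjusted p = 0.357), and 62.9% to 67.4% of them had a UMI. Fibroblasts and chondrocytes together held 61.8% and 61.1% of the Tnfrsf11b UMIs of kept barcodes in mutants and 73.1% and 74.1% in controls.

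Hypertrophic chondrocytes were at 74.2 and 108 CPM in mutants and 77.6 and 109 CPM in controls, overlapping (−0.03, SE 0.19, adjusted p = 0.909). As with the ligand, their Ptgs2-positive cells were lower in mutants (−1.19, SE 0.23, adjusted p = 0.00226), with the same few control cells, and the Ptgs2-negative cells were not called (0.55, SE 0.20, adjusted p = 0.0821). Osteoblasts were at 11.7 and 20.2 CPM in mutants and 16.3 and 12.1 CPM in controls (0.18, SE 0.25, adjusted p = 0.768), and mural cells at 10.2 and 10.4 CPM against 16.8 and 9.02 CPM (−0.25, SE 0.30, adjusted p = 0.584). Leukocytes had 5 to 19 UMIs per library (0.52, SE 0.57, adjusted p = 0.754).

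In the osteocyte-like gate the decoy transcript was lower in mutants. It was at 10.6 and 53.8 CPM in mutants and 105 and 315 CPM in controls (−2.60, SE 0.60, adjusted p = 0.0133), and the effect was 3.07 below that of the other groups on the log2 scale (SE 0.54, adjusted p = 0.000234). One control barcode had 62 of the 126 UMIs of its library, and the 5 highest held 76.2% and 83.3% in controls. Without mutant library 2 the log2 fold change was −4.28 and without control library 2 it was −1.58, both called, and with DESeq2 in place of edgeR the adjusted p was 0.212. In the barcodes with Phex and without Ihh the values were 14.4 and 60.8 CPM against 114 and 301 CPM (−2.22, SE 0.66, adjusted p = 0.182).

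The decoy difference was called in 3 other groups, and in reticular stroma and ECs the levels lay at or near the background. In reticular stroma Tnfrsf11b was at 14.0 and 25.2 CPM in mutants and 6.70 and 6.44 CPM in controls (1.63, SE 0.22, adjusted p = 1.42e-05), but not called with the even-numbered markers (0.011) or in Cbln1-positive cells (0.86). The erythroid level was 49.8 and 15.4 CPM in mutants and 11.1 and 5.50 CPM in controls. It lay above the reticular level in library 1 and below it in library 2 of each genotype. Between 6 and 9 reticular barcodes per library had 2 or more Tnfrsf11b UMIs, and they held 22 of 44, 72 of 92, 32 of 70 and 31 of 66 UMIs. Prg4 stood at 1790 and 7914 CPM in these barcodes of mutants and at 16141 and 29502 CPM in those of controls, against 55.7 to 108 CPM in the rest of the gate. These barcodes were picked by the decoy's own count, so the levels without them are lower by construction. They were also deeper, with medians of 7882 to 17753 UMIs against 5552 to 6079 in the rest. Without them the levels were 7.24 and 5.63 CPM in mutants and 3.66 and 3.46 CPM in controls. In the erythroid gate, barcodes with 2 or more Tnfrsf11b UMIs held 91.2% and 64.4% of them in mutants and 82.1% and 43.8% in controls. Without these the erythroid level was 4.93 and 5.76 CPM in mutants and 2.03 and 3.15 CPM in controls. Such barcodes were not higher in Prg4 in each library of the other gates. In mutant library 2 of the metaphyseal gate, 12 of them held 134 of 148 UMIs with Prg4 at 200 CPM, against 755 CPM in the rest, and in ECs of control library 1 Prg4 was at 0 against 30.0 CPM. In ECs Tnfrsf11b was at 20.3 and 11.3 CPM against 5.15 and 4.97 CPM (1.70, SE 0.29, adjusted p = 0.00225; 0.78 and not called with the even-numbered markers), with 55 of the 105 UMIs of the first library in 1 barcode, and in erythroid barcodes the difference was called too (2.42, SE 0.59, adjusted p = 0.0236), but not without mutant library 1 (1.26) or control library 2 (2.02). In metaphyseal stroma it was at 35.3 and 86.3 CPM against 23.9 and 30.0 CPM (1.26, SE 0.28, adjusted p = 0.00809), above the erythroid level in each library but the first mutant. Leaving out barcodes of 2 or more UMIs also takes out cells that express the decoy, so no ranking is drawn from what remains. Without them the erythroid level lay below that of metaphyseal stroma in each library. Metaphyseal stroma was then at 8.12 and 9.06 CPM in mutants and 10.3 and 9.71 CPM in controls. There 5 barcodes held 80.0% and 77.0% of the mutant UMIs, and the call was lost without mutant library 2 (0.44, adjusted p = 0.211), without control library 1 (1.09), with the odd-numbered markers (0.090) and with a stricter gate (−0.20). Whether mixed barcodes made these differences was not tested.

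The effects on the decoy transcript differed from the mean of the other groups also in ECs (1.65, SE 0.52, adjusted p = 0.0299, with 14.2% of genes called). They did not pass that test in reticular stroma (1.54, adjusted p = 0.0688), metaphyseal stroma (1.11, adjusted p = 0.173) or fibroblasts (−0.14, adjusted p = 0.985, with 3.71% called).

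The ratio of ligand to decoy UMIs ranged widely between groups. It is given as log2 of Tnfsf11 over Tnfrsf11b, with 0.5 added to each count, and since the transcripts can differ in capture, 0 does not mean equal molecules. In reticular stroma the ligand had more UMIs, with log2 ratios of 2.89 and 2.25 in mutants and 3.06 and 2.97 in controls. Both transcripts were higher in mutants, the decoy at or near the background. The ratio was lower by 0.44 in the mean (exact permutation test, 2-sided, p = 0.333). This is the smallest p that 2 libraries against 2 allow. Ligand UMIs made up 88.2% of the pair in mutant library 1 (exact 95% interval 84.5% to 91.3%) and 82.7% in mutant library 2 (79.2% to 85.8%). The interval covers counting error only. Without mutant library 2 the difference in the mean was −0.13, and over all alternatives it ran from −0.76 to 0.97, so its direction was not stable. In metaphyseal stroma the ratios were 1.95 and 0.79 against 1.22 and 0.88, overlapping (exact permutation p = 1).

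In cartilage and fibroblasts the decoy had more UMIs than the ligand. The log2 ratio was −0.39 and −1.09 in mutant and −0.34 and −1.03 in control hypertrophic chondrocytes (difference −0.05, exact permutation p = 0.667). In other chondrocytes it was −6.28 and −6.02 against −5.39 and −5.66, the mutants below both controls (−0.63, exact permutation p = 0.333). The ligand there lay below the erythroid level in mutants and above it in controls. In fibroblasts the ratio was −8.33 and −7.09 against −7.47 and −8.73 (0.39, exact permutation p = 0.667). Over all kept barcodes the ratios were −2.57 and −2.42 in the mutant libraries against −2.59 and −2.84 in controls (0.22, exact permutation p = 0.333), a mean gap smaller than that between the 2 controls.

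The ratio was higher in both mutant libraries than in the controls in 4 groups of few counts. In the osteocyte-like gate it was 3.80 and 1.64 against −1.65 and −3.46, a difference of 5.28 (exact permutation p = 0.333), 0.74 with the even-numbered markers, and 2.7 in its barcodes with Phex and without Ihh, with as few as 4 UMIs of the pair in a library. In mural cells it was 1.01 and 1.77 against −2.32 and 0.08 (2.51, exact permutation p = 0.333). In Myh11-positive mural cells alone the genotypes overlapped (−1.11, exact permutation p = 0.667). The mural decoy lay below the erythroid level in mutants (10.2 and 10.4 against 49.8 and 15.4 CPM) and above it in controls. In osteoblasts the ratio was −0.43 and −0.96 against −4.46 and −2.97 (3.02, exact permutation p = 0.333), where the ligand was near the erythroid level. In leukocytes it was 0 and −0.44 against −3.70 and −0.92 (2.09, exact permutation p = 0.333), with as few as 10 UMIs of the pair in a library. ECs overlapped (−0.30, exact permutation p = 0.667).

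**Figure D3:**
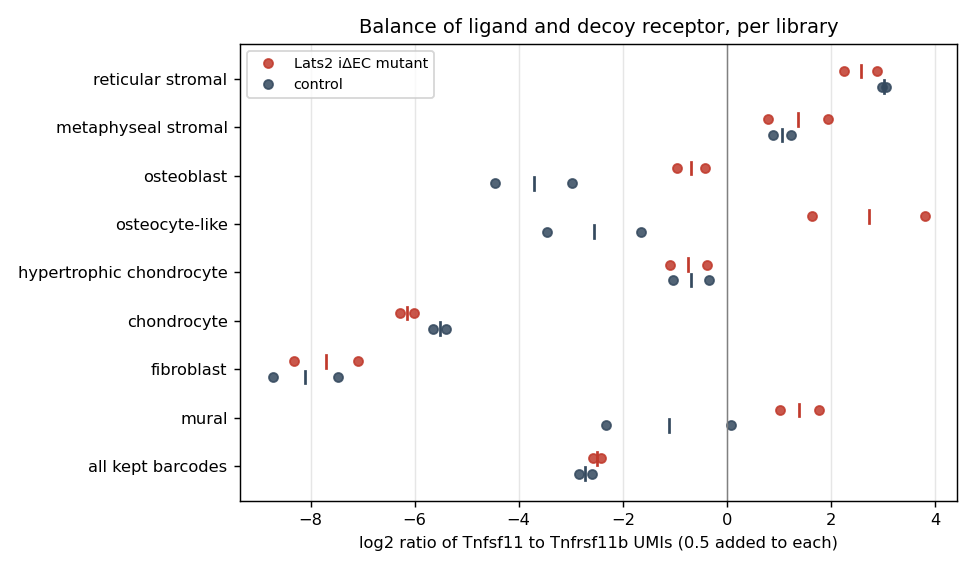
Log2 ratio of Tnfsf11 to Tnfrsf11b UMIs (x axis, 0.5 added to each count) in 8 gates and in all kept barcodes (y axis). Points are libraries, mutants in red and controls in dark blue, vertical ticks are means, and the grey line marks equal UMIs. Reticular stroma lies between 2.25 and 3.06 and fibroblasts between −8.73 and −7.09, and the genotypes part most in the osteocyte-like gate.

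The receptor transcript was found in vessel cells. Endothelial and mural cells together held 89.5% and 83.4% of the Tnfrsf11a UMIs of kept barcodes in mutants and 85.7% and 86.6% in controls. In ECs it was at 21.0 and 18.3 CPM in mutants and 8.53 and 11.1 CPM in controls, from 109, 121, 53 and 67 UMIs, and the mutants were higher in both libraries (log2 fold change 1.08, SE 0.18, 2.12-fold, adjusted p = 0.00170, with 35.3% of genes called). A UMI was seen in 9.29% and 7.70% of mutant and 5.58% and 5.71% of control ECs, and in 3.76% and 3.95% against 2.03% and 1.81% after thinning. In erythroid barcodes 1 UMI was seen in all 4 libraries together.

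Parts of the endothelial gate held cells with a UMI of Fmo2, Stab2, Gja4 or Ramp3 and of none of the others. In mutants most of the endothelial receptor UMIs came from the part with Fmo2, a monooxygenase (80 of 109 and 94 of 121). In controls such cells held 17 of 53 and 25 of 67. These cells had Tnfrsf11a at 64.9 and 64.5 CPM in mutants and 31.2 and 49.1 CPM in controls. The mutants were again above the controls, but the difference was not called among them (0.72, SE 0.25, adjusted p = 0.151, with 3.67% of genes called). They made up 22.7% and 21.2% of mutant ECs and 9.61% and 9.51% of control ECs. One mutant cell held 17 of the 94 UMIs of its library. In the part of the ECs with Stab2, a scavenger receptor of sinusoids, Tnfrsf11a was at 18.1 and 2.09 CPM in mutants and 10.7 and 11.6 CPM in controls (−0.27, SE 0.62, adjusted p = 0.848), and 5 mutant cells held all 12 UMIs of the first library.

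In mural cells the receptor transcript was lower in the mutant gate. It was at 6.0 and 7.07 CPM in mutants and 16.3 and 14.5 CPM in controls (−1.14, SE 0.27, 2.20-fold, adjusted p = 0.00561), and 0.113 was the adjusted p with DESeq2. In Myh11-positive mural cells alone it was at 12.6 and 15.3 CPM against 16.6 and 15.2 CPM, overlapping (−0.09, SE 0.27, adjusted p = 0.868). The Myh11-negative barcodes had 0.5 and 0 UMIs in mutants and none in controls. The part of the Myh11-negative barcodes in the lower level of the gate was not tested.

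Osteoclasts and their precursors, the cells best known for RANK, were hardly sampled. The leukocyte gate (73 and 91 barcodes in mutants, 222 and 206 in controls) had Tnfrsf11a at 0, 0, 0 and 2 UMIs, and a count of 0 allows up to 3.64, 2.64 and 1.24 CPM in the first 3 libraries. No leukocyte barcode had 4 of 7 osteoclast markers, and in all kept barcodes 1 of each mutant library and none of the controls had 4. Prss34, Mcpt8, Ctsg, Cpa3, S100a9, S100a8 and Mpo, genes of mast cells and granulocytes, were among the genes highest there relative to the other gates. Barcodes with granulocyte markers were few, 0 and 1 in mutants and 11 and 12 in controls. Those with monocyte or macrophage markers numbered 12 and 20 in mutants and 38 and 38 in controls. Those with T or NK markers numbered 30 and 37 in mutants and 100 and 82 in controls. The leukocyte gate holds what the depletion left. In reticular, metaphyseal, osteocyte-like, hypertrophic and other chondrocyte groups and in fibroblasts the receptor had 0 to 3.33 UMIs per library, and in osteoblasts 6, 3, 2.5 and 1, so no fold change is given there.

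**Figure D4:**
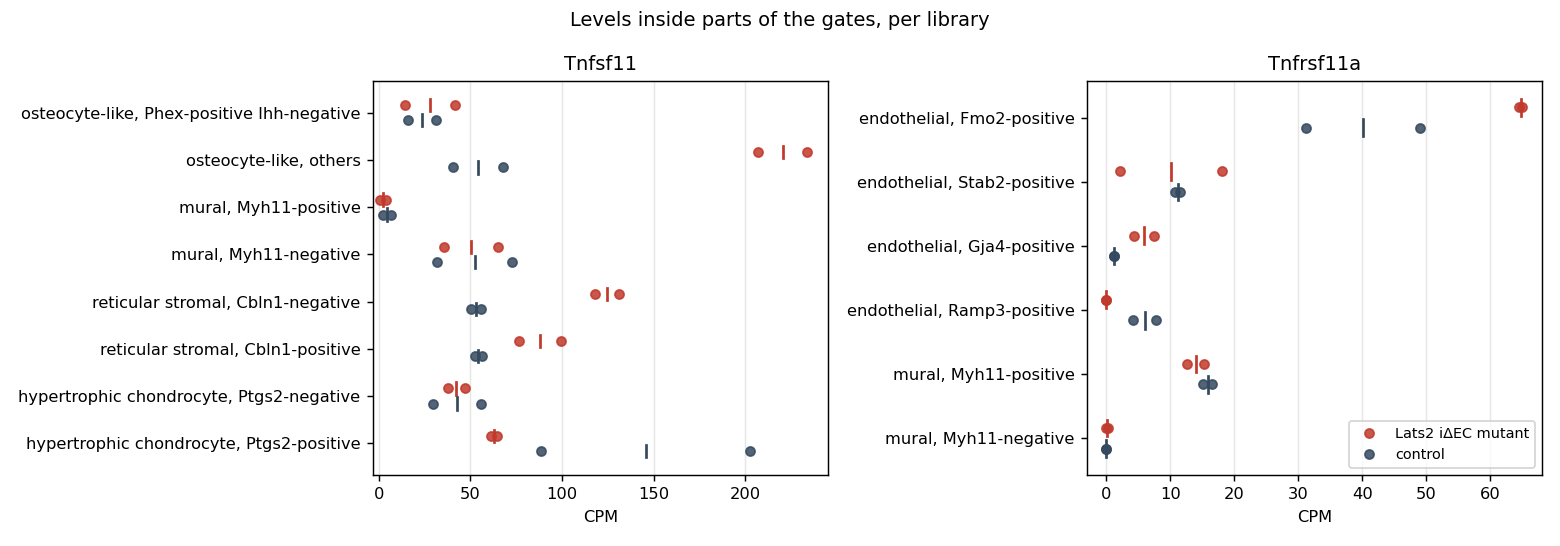
Level in CPM (x axis) of Tnfsf11 (left) in parts of 4 gates and of Tnfrsf11a (right) in parts of the endothelial and mural gates (y axis). Points are libraries, mutants in red and controls in dark blue, and vertical ticks are means. Tnfsf11 overlaps between genotypes in Phex-positive Ihh-negative osteocyte-like and in Myh11-positive mural barcodes and is higher in mutants in both reticular parts, and Tnfrsf11a is highest in Fmo2-positive ECs.

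The other genes of the pathway were taken in 2 lists. The first holds 40 partners and regulators of ligand and decoy in stroma, such as the hormone receptors Vdr and Pth1r, cytokine receptors and Csf1, the macrophage growth factor. In reticular stroma 8 of its 36 tested genes rose and 11 fell (21.4% of all genes were called there), with a median log2 fold change of −0.07 against −0.00162 over all genes. Ptgs2 rose from 0.192 and 0.488 CPM in controls to 16.6 and 10.7 CPM in mutants (5.27, SE 0.40), and it rose in the erythroid gate as well (8.87, SE 0.68). Il34, an alternative ligand of the receptor of Csf1, fell from 423 and 441 CPM to 300.4 and 280 CPM (−0.55, SE 0.06), and Runx2, the osteoblast transcription factor, from 1979 and 1904 CPM to 1289 and 1328 CPM (−0.54, SE 0.05). Vdr, the vitamin D receptor, rose (0.67, SE 0.11).

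In metaphyseal stroma 4 of 34 genes of this list rose and 4 fell (16.1% of all genes called), with a median of −0.14 against −0.000856 over all genes. Runx2 fell from 3226 and 3219 CPM in controls to 1967 and 1873 CPM in mutants (−0.69, SE 0.08). Lifr, a receptor chain for cytokines of the interleukin-6 family, fell by 1.02 on the log2 scale (SE 0.09), and Il11ra1 rose (1.53, SE 0.22). In hypertrophic chondrocytes 10 of 32 rose and 11 fell (38.7% of all genes called), among them Wnt5a (−2.26, SE 0.22) and Pth1r, the receptor of parathyroid hormone and of its related peptide (−1.36, SE 0.07), while Ptgs2 rose (3.22, SE 0.12). In mural cells, with 30.0% of all genes called, 8 of 35 rose, among them Vdr (2.79, SE 0.26) and the membrane protease gene Mmp14 (2.09, SE 0.09), and 4 fell. In osteoblasts 5 of 34 rose and 0 fell (4.90% of all genes called), and in fibroblasts 1 of 35 rose and 2 fell (2.90%). In osteocyte-like cells 4 of 27 rose and 6 fell (19.5%), in other chondrocytes 7 of 36 rose and 7 fell, near the share over all genes (36.3%), and in ECs 11 of 36 rose and 13 fell (35.3%), with the axon guidance gene Sema3a at −2.06 (SE 0.15) in ECs.

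The second list holds 41 genes below the receptor and osteoclast genes. In reticular stroma 8 of 30 rose and 4 fell (21.4% of all genes called), and in metaphyseal stroma 7 of 30 rose and 2 fell (16.1%). Fos and Jun, the AP-1 subunits that RANK signaling induces in osteoclast precursors, rose in both. They also rose in osteoblasts, osteocyte-like cells, hypertrophic chondrocytes, ECs and the erythroid gate. Fos rose in other chondrocytes and mural cells too, and neither was called in fibroblasts or leukocytes. Fos was at 1122 and 982 CPM in mutant and 412 and 382 CPM in control reticular stroma (1.43, SE 0.06), and at 1090 and 955 CPM against 315 and 347 CPM in metaphyseal stroma (1.68, SE 0.10). Jun rose by 0.97 (SE 0.09) and 1.30 (SE 0.11) on the log2 scale. Nfatc1, the master factor of osteoclast formation, rose in metaphyseal stroma (0.92, SE 0.20). These cells had almost no Tnfrsf11a, and dissociation is known to raise Fos and Jun, whose part here was not tested.

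In mural cells 12 of 29 genes of the second list rose and 1 fell, where 30.0% of all genes were called (median 0.32 against −0.00525 over all genes). Among them were Mmp9, a gelatinase (2.76, SE 0.32), the cathepsin K gene Ctsk (2.33, SE 0.13) and Trem2, a myeloid receptor gene. Mmp9 was at 2.73 and 0.958 CPM in the Myh11-positive barcodes of mutants and 1.60 and 1.05 CPM in those of controls. In Myh11-negative ones it was at 996 and 902 CPM against 7890 and 669 CPM. These made up 49.5% and 50.1% of the mutant gate and 2.24% and 4.88% of the control gate. In ECs, where the receptor rose, 5 of 32 rose, among them Fos (1.15, SE 0.06), and 11 fell (35.3% of all genes called). In hypertrophic chondrocytes 10 of 29 rose and 4 fell (38.7%), in other chondrocytes 11 of 33 rose and 6 fell (36.3%), in osteoblasts 4 of 28 rose and 1 fell (4.90%), in osteocyte-like cells 4 of 16 rose and 2 fell (19.5%), and in fibroblasts 2 of 29 rose and 2 fell (2.90%). In leukocytes 0 genes of either list, of 29 and 33 tested, were called by edgeR.

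Over the 44 sums of 11 gates and 4 libraries, the genes whose log2 CPM followed each of the 3 most closely were ranked by Pearson's r among 12063 genes, as a description, since the sums share their libraries. Tnfsf11 was followed by Zfp618 (0.876), Mmp13 (0.870) and Gm42793 (0.815). Tnfrsf11b was followed by Nrtn (0.918), Ngef (0.908) and Ecrg4 (0.907), and Tnfrsf11a by Pgm5 (0.951), Tcf15 (0.939) and Mcam (0.910), the last of which is one of the mural markers used for gating.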

How the data were processed

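Femur and tibia metaphysis of 2 mutant and 2 control samples was profiled by 10x single-cell RNA sequencing. The authors trimmed reads with cutadapt 3.5 and ran STARsolo 2.7.10a on mm39, and deposited unfiltered expected counts of UMIs per gene and barcode, in which reads of several genes are shared out by expectation maximization, so that 9.09% to 9.95% of entries are not whole. They were rounded after summing. The members and lists were chosen with earlier results of these data known.

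Barcodes with at least 1000 UMIs and 800 genes were kept (27707), no doublet caller was run, and barcodes were gated by the mean z-score of marker lists (at least 0.5 and 0.3 above the next list), which left 4805 without a gate (17.3%). No cell annotation was used. Counts were summed per library and gate and fitted with edgeR 4.0.16 (quasi-likelihood test, TMM, filterByExpr, Benjamini-Hochberg over all genes, call at 0.05, limma 3.58.1, R 4.3.3). Members below the filter came from a fit without it, and standard errors are the fold change over the root of F. A fold is given where 1 genotype has over 3 UMIs in each library. The interaction fit held 9 gates, with library as a block. Ratios were tested by exact permutation (scipy 1.17.1). Thinning drew 2000 UMIs per cell. In simulated counts with 200 genes changed by 1 on the log2 scale, 70% were recovered in reticular stroma (14801 genes, 3 false calls) and 23% in osteocyte-like cells (6043 genes, 0 false calls). Labels do not say whether samples are single animals, so p-values refer to variation between libraries. With 2 libraries per genotype, edgeR estimates that variation in part from the other genes of the fit. Its p-values and standard errors therefore do not rest on the spread of a gene's own libraries alone. Named list genes are the up to 6 called genes per list and group with the largest change and no overlap of genotypes. Alternatives were RLE scaling, DESeq2 1.42.0, other filters and gates, a replicate block and leaving out each library, and splits of gates were chosen after seeing the data. Python 3.11.15, numpy 2.4.6, pandas 2.3.3 and matplotlib 3.10.9 were used.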

Additional observations from a re-analysis of the deposited data

Results flagged for a closer look

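The genotype effect of Tnfsf11 differed from the mean of the other groups by an interaction test in 4 gates. It was higher in osteoblasts by 1.92 on the log2 scale (near the erythroid level) and in osteocyte-like barcodes by 1.42. It differed by −2.02 in chondrocytes (below the erythroid level in mutants) and by −1.47 in hypertrophic chondrocytes. The effect of Tnfrsf11b differed by −3.07 in osteocyte-like barcodes and by 1.65 in ECs, where 1 mutant barcode held 55 of 105 UMIs. No interaction value is given for Tnfrsf11a, since all 4 osteocyte-like sums were at 0 and the standard errors of that fit were 1922 or more on the log2 scale.

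Barcodes without a gate entered no fit, but they are in the ratio over all kept barcodes. In mutants they carried both transcripts above the level in controls. Tnfsf11 was at 40.2 CPM in the mean of the mutants and at 19.5 and 17.8 CPM in controls, and Tnfrsf11b at 233 CPM against 153 and 157 CPM. Among them, barcodes whose best list was mural (113 and 135 in mutants, 17 and 18 in controls) had Tnfsf11 at 185 and 137 CPM in mutants and 56.5 and 79.0 CPM in controls, and those nearest to the metaphyseal list at 217 and 164 CPM against 61.9 and 72.0 CPM. The genotypes overlapped in those nearest to the osteocyte-like list (51.3 and 46.5 against 124 and 35.4 CPM) and to the hypertrophic list (20.1 and 12.6 against 18.9 and 41.8 CPM). In barcodes with fewer than 100 UMIs, which hold mostly free RNA, Tnfsf11 was at 27.9 CPM in the mean of the mutants and at 12.6 and 13.8 CPM in controls, and Tnfrsf11b at 155 CPM against 113 and 104 CPM. The part of free RNA in the gated levels was not tested beyond the erythroid values. Other groups of 2 libraries cannot show an outlying sample by the test used here.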

How the results depend on the processing

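Across the alternatives for the gates of stroma, cartilage, bone, vessels and leukocytes, the rise of Tnfsf11 in reticular stroma stayed called, from 0.74 (Cbln1-positive cells) to 1.27, and that in metaphyseal stroma from 0.70 (gates made with the even-numbered markers) to 1.69. Fibroblast and osteoblast calls did not change either. The cause of the following changes was not tested. Gates made with the even-numbered markers gave 0.011 for Tnfrsf11b in reticular stroma, 0.29 and −0.53 for Tnfsf11 and Tnfrsf11b in osteocyte-like barcodes and 0.78 for Tnfrsf11b in ECs, none of them called, but called 0.56 for Tnfsf11 in hypertrophic chondrocytes (the opposite direction, adjusted p = 0.00851) and 1.46 in ECs. Odd-numbered markers gave 0.090 for Tnfrsf11b in metaphyseal stroma (not called), and −0.63 for Tnfsf11 in chondrocytes and 2.95 in leukocytes (called). The stricter gate gave −0.20 for Tnfrsf11b in metaphyseal stroma and 1.26 for Tnfsf11 in mural cells, neither called. DESeq2 did not call Tnfrsf11b in osteocyte-like barcodes (−2.69) or Tnfrsf11a in mural cells (−1.15).

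In parts of gates chosen after seeing the data, calls were lost for Tnfrsf11b in Cbln1-positive reticular cells (0.86), for Tnfsf11 and Tnfrsf11b in Phex-positive Ihh-negative barcodes (0.39 and −2.22), for Tnfrsf11b and Tnfrsf11a in Fmo2-positive ECs (−0.19 and 0.72) and for Tnfsf11 and Tnfrsf11a in Myh11-positive mural cells (−0.93 and −0.093). Calls were gained for Tnfsf11 in Prg4-negative (−0.86) and Tnfrsf11b in Prg4-positive chondrocytes (0.27), and for both in Ptgs2-positive hypertrophic cells (−1.13 and −1.19).

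Leaving out each library in turn gave 0.44 to 1.71 for Tnfrsf11b in metaphyseal stroma (not called without mutant 2, or without control 1 at 1.09), −0.31 to 0.24 in hypertrophic chondrocytes (called without control 1 at −0.29) and 0.63 to 2.36 for Tnfsf11 in ECs (called without control 2). Calls held from −4.28 (without mutant 2) to −1.58 (without control 2) for Tnfrsf11b in osteocyte-like barcodes and from 1.64 (without control 1) to 3.25 (without control 2) for Tnfsf11 in mural cells. The difference of log2 ratios ran from −0.76 to −0.13 in reticular stroma (without mutant 1 or 2), −0.26 to 0.89 in metaphyseal stroma (without mutant 1 or 2), and, without control 1 or 2, 1.31 to 3.71 in mural cells, 2.28 to 3.77 in osteoblasts and 0.70 to 3.48 in leukocytes. It ran from 4.197 (without mutant 1) to 6.36 (without mutant 2) in osteocyte-like barcodes. In ECs it ran from −1.14 to 0.54, in fibroblasts from −0.24 to 1.02 and in hypertrophic chondrocytes from −0.41 to 0.30. In other chondrocytes it ran from −0.76 to −0.49 and over all kept barcodes from 0.10 to 0.35. At the erythroid background, Tnfrsf11b ran from 1.26 (without mutant 1) to 3.07 (without mutant 2) and lost its call without mutant 1, without control 2 (2.02) and with DESeq2 (2.47), and Tnfsf11 with the cell filters of the study (2.88). A lone library is then assumed to vary like the other genotype.

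The difference of log2 ratios moved in reticular stroma to −0.043 with equal weight per cell, 0.00402 with the stricter gate and 0.97 with even markers, and in metaphyseal stroma to 1.72 (stricter), 1.64 (odd) and −1.73 (even). It was 3.75 (odd), 0.74 (even) and 2.7 (Phex-positive Ihh-negative) in osteocyte-like barcodes, and 0.84 (equal weight) and 0.79 (even) in hypertrophic chondrocytes. In mural cells it was 1.25 (stricter) and −1.11 (Myh11-positive). It was −0.52 (even) in fibroblasts and 0.40 (equal weight) over all barcodes.

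The replicate numbers did not pair the samples (correlation of same-numbered deviations −0.03 to 0.10). With the number as a block, Tnfsf11 was at 1.11 in reticular and 1.42 in metaphyseal stroma, and no member's call changed.

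Genes called varied by over 1.5 times in each gate, from 3226 to as few as 1314 (DESeq2; 1968 without control 1) in reticular, 2076 to 785 and 847 (without control 1 or 2) in metaphyseal, 643 to 193 and 180 (without control 1 or 2) or 1290 (even) in osteoblast, 1259 to 576 (DESeq2) or 2633 (even) in osteocyte-like, 6003 to 3133, 4978 to 2690 (3201 without mutant 2), 5205 to 2814 and 3733 to 1812 (DESeq2) in chondrocyte, hypertrophic, endothelial and mural, 381 to 11 and 113 (without control 1 or 2) or 670 (without mutant 1) and 1047 (no filter) in fibroblast, 8 to 587 (no filter; 32 to 194 without any 1 library) in leukocyte and 3759 to 823 (cell filters of the study; 1698 without mutant 1, 2144 and 1713 without control 1 or 2) in erythroid gates. Transcripts seen in under 20% of cells have no value under that filter, and DESeq2 gave no adjusted p for some. Counts of under 10 UMIs limit the leukocyte and osteocyte-like parts.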

Other observations

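Activated T cells are a known source of RANKL, and the leukocyte gate held 30 and 37 barcodes with T or NK markers in mutants and 100 and 82 in controls. Tnfsf11 was at 0 and 7 UMIs in those of mutants and at 0 and 4 UMIs in those of controls. The highest barcode had 5 of the 7 UMIs in the second mutant library and all 4 in the second control library. Monocyte- or macrophage-like barcodes had 3 and 1 Tnfsf11 UMIs in mutants and 0 and 0 in controls, and they held both of the leukocyte gate's Tnfrsf11a UMIs, in control library 2. No comparison is drawn at these counts.

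Among ECs outside the Fmo2-positive part, those with a UMI of Gja4, which encodes the arterial connexin 37, had 4 and 6 Tnfrsf11a UMIs in mutants and 1 and 1 in controls. Those with a UMI of Ramp3, a receptor activity modifying protein, had 0 and 0 UMIs in 26 and 26 mutant cells and 3 and 2 UMIs in 59 and 83 control cells. The Fmo2, Gja4, Ramp3 and Stab2 sets do not overlap, since cells with a UMI of more than 1 of these genes were left out.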
